A study of Mus musculus with 3 samples.

Results

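The 7 genomic regions described here are testis piRNA clusters, long stretches of the mouse genome covered by PIWI-interacting RNA (piRNA) reads of adult testis. They were chosen by their testis reads, the values that made them clusters. By a rule on 10 kb windows (at least 100 RPM, reads scaled to a library of 1000000, and at least 20 distinct left ends, with windows joined across at most 1 other window), testis had 128 clusters, and the 7 regions ranked 1, 2, 3, 4, 5, 7 and 10 among them by reads. Cut into 1 kb bins, they gave 460 bins, of 174880 bins of the genome that held a read in any library. High testis levels in them therefore follow from the choice and are given as a description. In the coordinates of the deposited files, counted from 1, the regions are chr17:27420001-27510000, chr9:67540001-67610000, chr18:67190001-67250000, chr6:127730001-127800000, chr5:113750001-113800000, chr5:150590001-150640000 and chr2:92380001-92450000. The regions on chromosome 5 are called proximal and distal by their order. The genome build is not given in the sources used here and no gene annotation was joined, so genes, exons and introns under the bins are not named.

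The study compared small RNAs bound by MIWI2 (PIWIL4) in blood-forming cells with the small RNAs of testis, in 3 libraries of 1 sample each. The MEL library was an immunoprecipitate with a rabbit polyclonal antibody against MIWI2 from MEL cells (ATCC TIB-55), a line of early mouse erythroblasts transformed by Friend virus and grown in culture. The spleen library was an immunoprecipitate with the same antibody from unfractionated splenocytes of C57Bl6/J mice aged 10 weeks, and so from a mixture of blood cell types. The testis library came from mice of the same strain and age without any antibody: total RNA was run on an 18% polyacrylamide gel and the visible band near 29 nt was cut out, a step that selects by length. Depth was 823452 reads in MEL, 692011 in spleen and 1143785 in testis, so the floor of 3 reads used below stands for 3.64, 4.34 and 2.62 RPM. With 1 library per group there is no spread between replicates and no test. All intervals are exact 95% intervals (Poisson for levels, Clopper-Pearson for shares) and cover counting error only, because the reads carry no molecular identifiers. A control immunoprecipitate was not analysed here.

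PIWI proteins carry piRNAs, small RNAs a little longer than microRNAs, and are best known for silencing transposons in the male germ line. In adult testis most piRNAs are cut from long single-stranded precursor transcripts of a few large genomic clusters. Some of those precursors leave a shared promoter in opposite directions. The 5′ end of a piRNA is fixed by cleavage before loading, whereas the 3′ end is trimmed afterwards to a length that depends on the PIWI protein, so that the same 5′ end is often found with several 3′ ends. MIWI2 is known for its nuclear role in the fetal germ line, while the PIWI proteins of adult testis are mainly MIWI and MILI.

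All 3 libraries had reads in each of the 7 regions. The regions held 401997 testis reads, or 35.1% of the library (35.1 to 35.2), 28612 MEL reads, or 3.47% (3.44 to 3.51), and 4049 spleen reads, or 0.585% (0.567 to 0.603). Among reads of 24 to 32 nt, the length of piRNAs, the shares were 35.5% in testis, 7.90% (7.80 to 8.0) in MEL and 5.57% (5.39 to 5.74) in spleen. Reads of this length numbered 1071061 in testis, 287397 in MEL and 65363 in spleen, so the restriction kept nearly all of testis and a small part of spleen, and brought the MEL and spleen shares closer to each other.

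The chr17 region had 73194 testis, 12492 MEL and 805 spleen reads. The chr9 region had 66098 testis, 3783 MEL and 670 spleen reads. The chr18 region had 63475 testis, 1910 MEL and 580 spleen reads. The chr17 region was thus first in all 3 libraries, and far ahead of the others in MEL alone. The chr6 region held 60191, 2927 and 628 reads of testis, MEL and spleen, the chr2 region 54042, 3707 and 655, the proximal chr5 region 46615, 1910 and 407, and the distal chr5 region 38382, 1883 and 304. The chr17 region stood at 15170.3 RPM in MEL (14905 to 15439) against 1163.3 RPM in spleen (1084 to 1246). Scaled to reads of all lengths, MEL was above spleen in all 7 regions, by 2.77-fold in chr18 to 13.0-fold in chr17. Scaled instead to the reads of 24 to 32 nt, MEL was 2.90-fold above spleen in chr17, between 0.96-fold and 1.29-fold in chr6, chr9, chr2 and both chr5 regions, and 0.72-fold in chr18. On that scale chr17 had 32457 reads per 1000000 in MEL (31802 to 33122) against 11199 in spleen (10402 to 12040), and chr18 had 5668 (5396 to 5950) against 7864 (7199 to 8574). So chr17 was higher in MEL on either scale, whereas the direction for chr18 and, narrowly, chr6 and proximal chr5 turned with the scale.

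**Figure D1:**
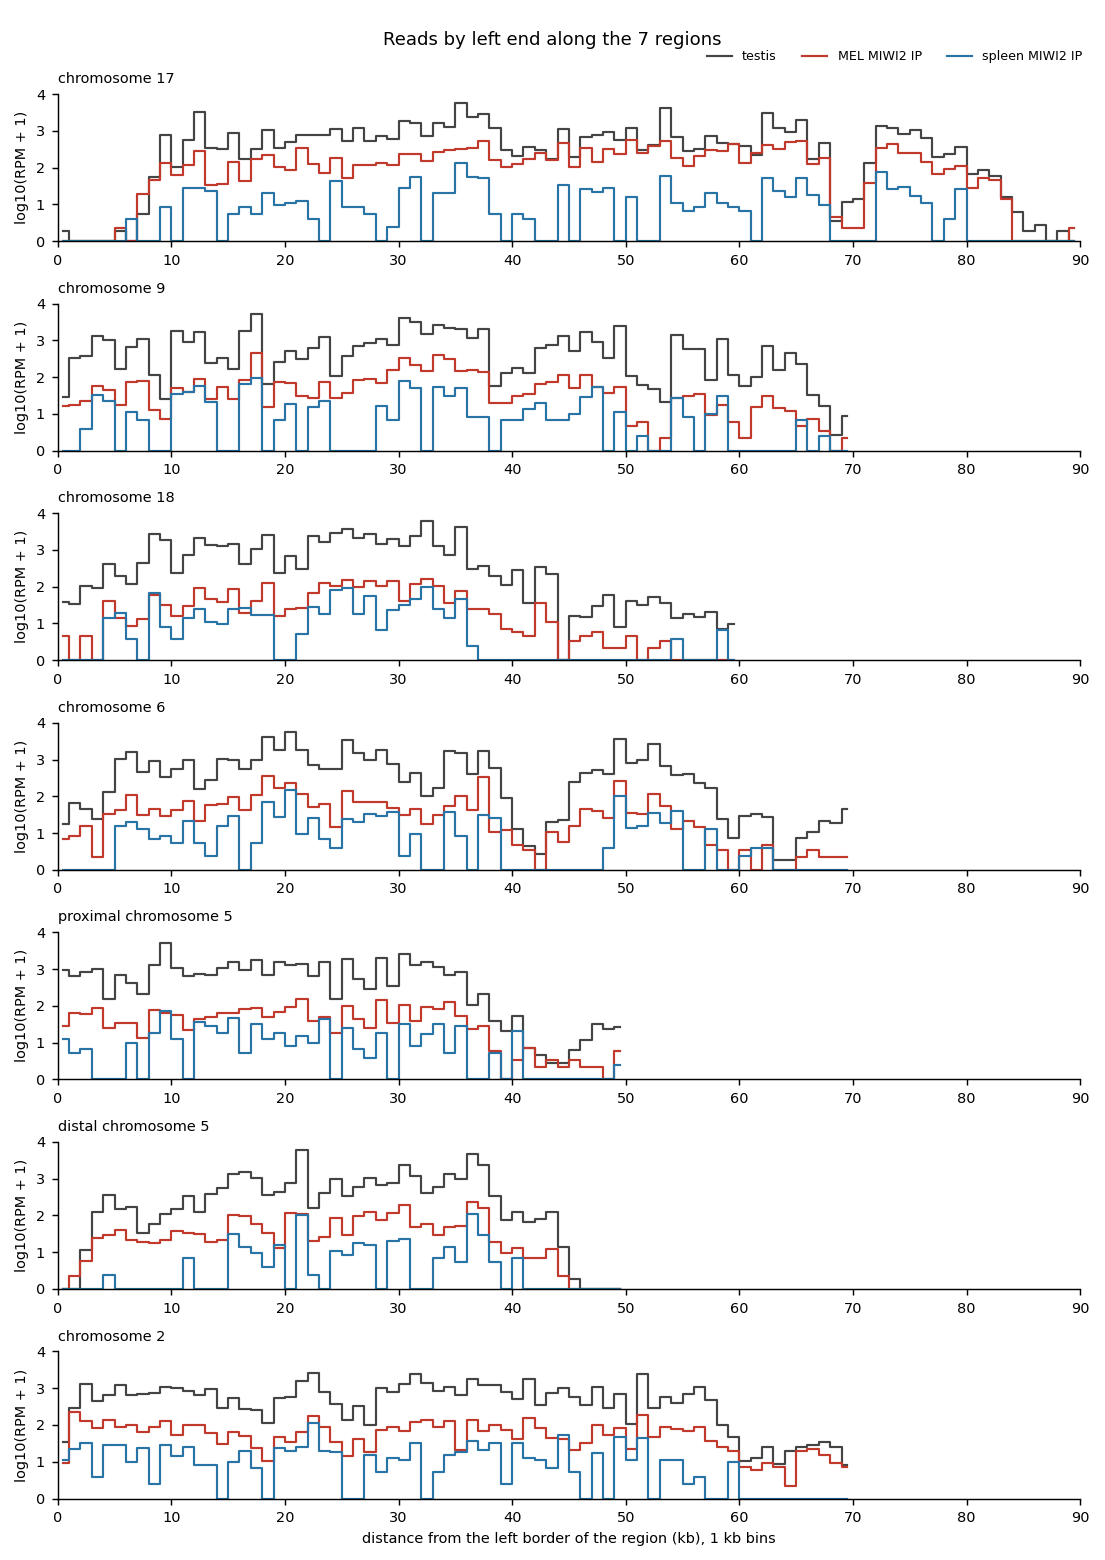
Reads by left end in 1 kb bins along the 7 regions, as log10(RPM + 1) against distance from the left border in kb, for testis (dark grey), MEL MIWI2 IP (red) and spleen MIWI2 IP (blue). Testis lies above both immunoprecipitates over nearly every bin, and the testis and MEL profiles start and stop at about the same places. The level drops inside the chr17 and chr6 regions. Spleen is too sparse to follow some borders, with no base covered from 67226723 to the end of the chr18 span or from 150594683 to 150601411 in distal chr5.

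The outer borders of the clusters were set from 1 kb bins with at least 100 RPM in testis. Between the first and the last such bin, the 7 clusters spanned 369 of the 460 kb: 71 kb in chr17, 65 kb in chr9, 58 kb in chr2, 54 kb in chr6, 42 kb in chr18, 41 kb in distal chr5 and 38 kb in proximal chr5. The spans held between 99.2% (chr18) and 99.9% (distal chr5) of the testis reads of the regions. They also held between 97.3% and 99.7% of the MEL reads and between 95.6% and 100% of the spleen reads, which the borders had not been set on.

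Most borders were steep in testis. At the left border of chr17, the bin inside (27429001 to 27430000) had 881 testis, 106 MEL and 5 spleen reads, and the bin outside had 63, 36 and 0. At its right border the last bin inside (27499001 to 27500000) had 419 testis, 88 MEL and 17 spleen reads, against 74, 22 and 0 in the next. In chr18 the left border stood at 67192001, with 117 testis reads inside and 38 outside, and 3 and 0 in MEL. At its right border 251 testis reads in the bin from 67233001 to 67234000 were followed by 0, with 8 and 0 in MEL and 0 and 0 in spleen, so no library had a read in the adjacent bin there. Reads came back farther out: over 5 kb on each side of that border testis had 1122 reads inside and 133 outside, or 8.44-fold, the lowest such testis fold of the 14 borders. The chr9 cluster kept some reads outside: its left border stood at 67541001, with 369 testis reads inside and 32 outside, and the right one at 67606000, with 261 and 37. In chr6 the span ran from 127734001 (150 testis reads inside, 27 outside) to 127788000 (194 and 26). In chr2 it ran from 92381001 (322 and 38) to 92439000 (116 and 54), and in distal chr5 from 150593001 (143 and 12) to 150634000 (137 and 15). The left border of chr18 (102.3 RPM), the right border of chr2 (101.4 RPM) and both borders of distal chr5 (125.0 and 119.8 RPM) thus lay in bins close to the threshold. The right border of proximal chr5 stood at 113788000 (243 and 43). Its left border coincided with that of the region, since the first bin, from 113750001, held 1076 testis reads and the bin before it, which belongs to no chosen region, 61. The values on the 2 sides of a border describe the 100 RPM threshold and are not tested.

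Immunoprecipitate reads were lower outside most of these borders, on values the borders had not used. Over 5 kb on each side, MEL had more reads inside than outside at 14 of 14 borders and spleen at 13, with 0 and 0 at the right of chr18. In the adjacent bins MEL had more inside at 13 of 14, the exception being the right border of chr9 with 3 inside and 5 outside. Spleen had more inside at 6 and more outside at 2. Over the 5 kb inside and the 5 kb outside the left border, MEL had 508 and 52 reads in chr17, 130 and 14 in chr9, 53 and 4 in chr18, 210 and 25 in chr6, 107 and 5 in distal chr5, and 544 and 8 in chr2. Bins outside were counted also where they lie beyond the region. Spleen had too few reads outside for a ratio at most borders, with 56 inside and 2 outside at the left of chr17 and 47 and 5 at the right of chr6. It had 43 and 17 at the right of proximal chr5 and 10 and 6 at the right of chr2, where the 2 sides lay closer. The softest border in MEL was the right one of chr17, with 541 reads inside and 111 outside, against 2814 and 263 in testis.

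Levels varied widely within each cluster. In testis the median bin of a span ranged from 400.4 RPM (distal chr5) to 903.1 RPM (chr18), and the top bin was 3.74-fold (chr2) to 14.9-fold (distal chr5) above the median of its span. Ranked by reads, 73 bins held 50% of the testis reads of their regions, from 5 bins in distal chr5 to 16 in chr2. The chr2 cluster was thus the most even of the 7 and distal chr5 the most uneven.

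The densest bins were the following. In chr17 the bin from 27455001 to 27456000 had 6495 testis, 269 MEL and 89 spleen reads. In chr18 the bin from 67222001 had 6986 testis, 130 MEL and 67 spleen reads, the highest testis level of all members at 6108 RPM. In distal chr5 the bin from 150611001 had 6837 testis, 89 MEL and 71 spleen reads. In all 3 bins testis was far above both immunoprecipitates, and MEL and spleen RPM lay within 3-fold of each other. The top testis bin of chr6 (127750001) held 6551, 186 and 104 reads of testis, MEL and spleen, and that of chr9 (67557001) held 6071, 375 and 66. The top bins of proximal chr5 (113759001) and chr2 (92402001) held 5889, 51 and 49 and 2969, 144 and 79 reads. The densest MEL bin was the densest testis bin in chr9 and chr18 only.

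Of the 343 member bins with at least 100 RPM in testis, 343 held a MEL read, where 99.7% of all such bins of the genome did. A spleen read was present in 257 of the 343, or 74.9%, against 73.4% of all such bins. The clusters were thus like other dense testis bins in both counts. Inside the spans no bin lacked a testis read, 3 lacked a MEL read and 109 lacked a spleen read. Pearson's correlation with testis across the bins of a span, on log2(RPM + 1), was 0.73 (chr2, 58 bins) to 0.90 (chr18, 42 bins) for MEL and 0.52 (chr2) to 0.82 (chr18) for spleen. Neighbouring bins share their library and local read density, so these values are a description.

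Only 3 bins inside the spans fell under 10 RPM in testis, in 2 of the clusters. In chr17 the bin from 27488001 to 27489000 had 3 testis, 3 MEL and 0 spleen reads, and the bin before it had 543, 148 and 6. The next bin had 12, 1 and 0 reads. In chr6 a gap of 2 kb, from 127771001 to 127773000, had 6 testis, 2 MEL and 0 spleen reads, between neighbours of 14 and 22 testis reads. Both gaps were low in all 3 libraries. The longest stretch without any base under a testis read was 1271 nt in chr17 (27490139 to 27491409), 697 nt in chr6 and 609 nt in chr2, and between 238 and 383 nt in the other clusters. Testis reads covered between 70.4% and 76.6% of the bases of the spans, MEL reads between 28.3% and 49% and spleen reads between 3.64% and 6.10%. In MEL the chr17 span was the most fully covered, and there the longest uncovered stretch was 1739 nt (27488219 to 27489957), which overlaps the low testis bin.

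The clearest internal structure was in the read ends. Without strand, a read has a left end (its lower coordinate) and a right end. For each bin with at least 20 distinct intervals (pairs of ends) of 24 to 32 nt in testis, the number of distinct right ends was divided by the number of distinct left ends. A bin at 1.2 or more has fewer left ends than right ends and is called left-sharp, and a bin at the inverse of 1.2 or less is called right-sharp. The sharp end of a bin is the one with fewer distinct positions, and the other is its blunt end. Of the 460 bins, 71 had too few intervals. Of the 389 others, 174 were right-sharp, 192 left-sharp and 23 even, so 94.1% were called, against 90.1% of the 1650 such bins of the genome. The median ratio was 0.67 in right-sharp and 1.46 in left-sharp bins. Such one-sided ends were thus a general feature of dense testis bins and the share in the 7 clusters lay near the background. The background was 46.5% for right-sharp and 43.5% for left-sharp bins. At a ratio of 1.5, 78 bins were right-sharp and 76 left-sharp, against 16.1% and 15.8% of all such bins.

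What differed between the clusters was the arrangement of the sides along the DNA. In all 7, every right-sharp bin lay to the left of every left-sharp bin, with no bin out of order. Distal chr5 had no left-sharp bin and chr2 had 1 right-sharp bin, so the order is fixed in the former and rests on 1 bin in the latter. Counted from ends with at least 2 reads, 1 of the 7 was fully in order: 9 bins took the other side, each with at most 34 intervals and 10 such ends. In 5 clusters a run of right-sharp bins was followed by a run of left-sharp bins, each run being called an arm below. The chr17 cluster switched between 27462000 and 27462001, with 33 right-sharp bins before and 38 left-sharp bins after, and the ratio went from 0.71 to 1.35 from 1 bin to the next. The proximal chr5 cluster switched in the same abrupt way at 113769000 to 113769001, with 19 right-sharp and 23 left-sharp bins and ratios of 0.74 and 1.37. In both of these clusters the switch lay near the middle of the span.

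In the other 3 clusters with both sides, a single even bin separated the arms. The chr9 cluster had 36 right-sharp bins up to 67581000 and 23 left-sharp bins from 67582001. The chr18 cluster had 33 right-sharp bins up to 67226000 and 11 left-sharp bins from 67227001, so its left-sharp arm was short. The chr6 cluster was the other way round, with 14 right-sharp bins up to 127746000 and 38 left-sharp bins from 127747001. The distal chr5 cluster had 38 right-sharp bins, 0 left-sharp and 3 even ones. The chr2 cluster had 59 left-sharp bins and 1 right-sharp bin, the first of the region (92380001 to 92381000, outside the span), which had 30 intervals, 38 reads and a ratio of 0.81, close to the threshold. At none of the 5 switches was there a gap in the reads. From the last right-sharp to the first left-sharp bin, the longest uncovered testis stretches were 201 nt (chr17), 126 nt (chr9), 88 nt (chr18), 59 nt (chr6) and 55 nt (proximal chr5). The chr17 stretch, 27461001 to 27461201, began at the first base of these bins, so it may extend farther left.

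**Figure D2:**
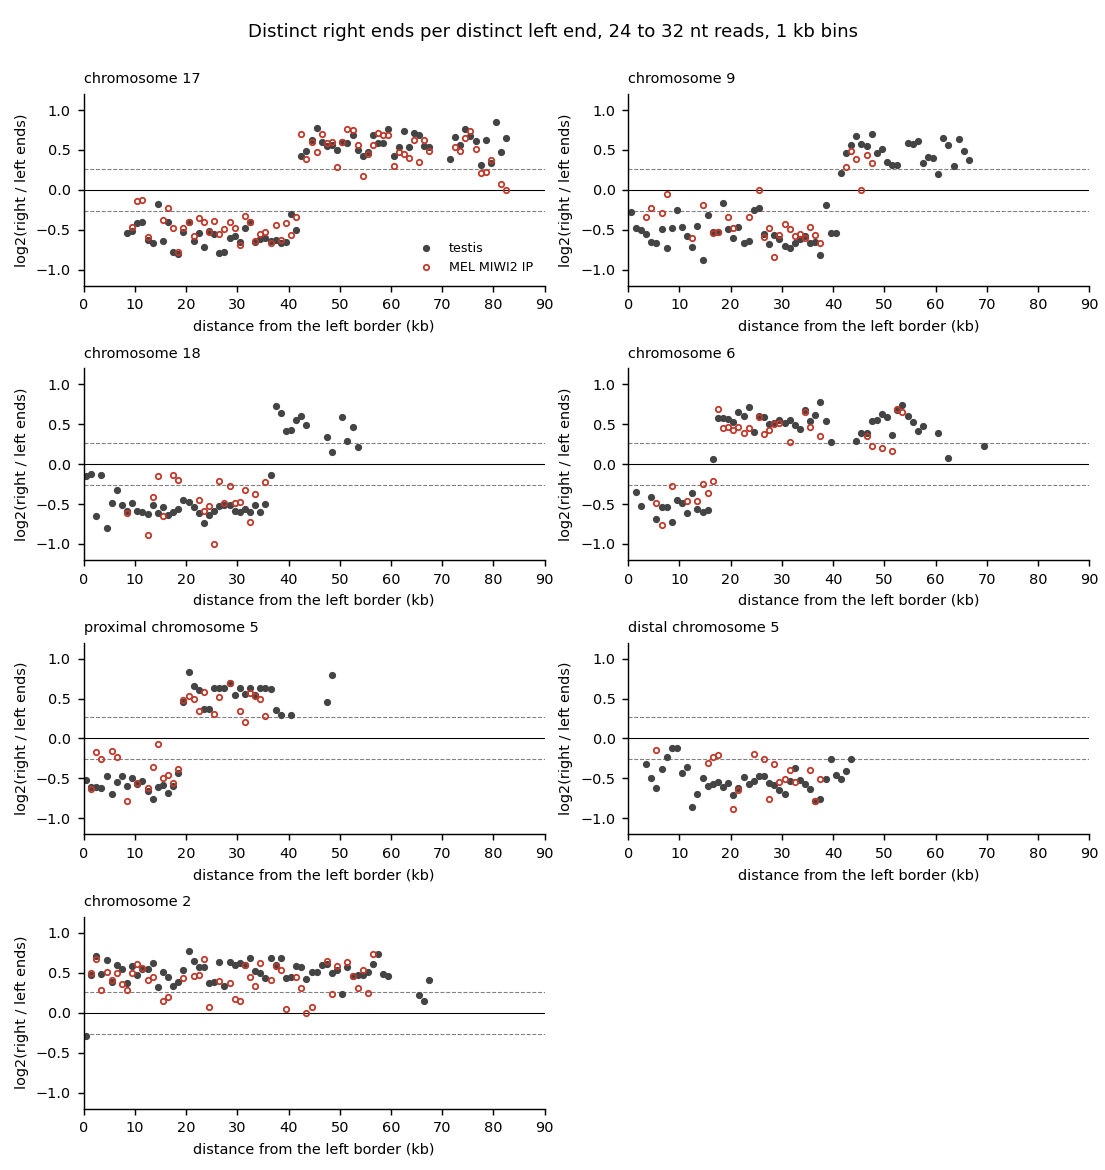
Distinct right ends per distinct left end of 24 to 32 nt reads in 1 kb bins, on a log2 axis, against distance from the left border of each region in kb, for testis (filled dark grey) and MEL (open red), in bins with at least 20 distinct intervals of that library. Dashed lines mark ratios of 1.2 and its inverse, and values below the line at 0 stand to the left of values above it in the 5 clusters with both arms, while testis stays below it in distal chr5 and above it in chr2 except for the first bin.

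MEL reads had the same sides as testis reads, measured on their own ends. Of 123 left-sharp testis bins with at least 20 MEL intervals, 120 had a MEL ratio above 1, 103 reached 1.2, and 0 were right-sharp in MEL. Of 112 right-sharp testis bins, 112 had a MEL ratio below 1, 91 were right-sharp in MEL and 0 left-sharp. Over all testis-called bins of the genome with that many MEL intervals, the direction was the same in 98.9% and the call in 83.0%, so the 7 clusters were close to the background here too. The median MEL ratios were 1.38 and 0.72, nearer to 1 than the testis medians of 1.49 and 0.66 in the same bins. Summed over each of the 12 arms, MEL had the direction of testis in 12 of 12, with ratios of 0.72 to 0.78 in right-sharp arms and 1.14 to 1.43 in left-sharp arms. Spleen had it in 10 of the 11 arms that held spleen reads, and in the left-sharp arm of chr9 it had 26 left and 26 right ends. Spleen had no more than 107 distinct left ends in a right-sharp arm, so its ratios, between 0.81 and 0.98 in right-sharp arms, were poorly determined.

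Among the other 121 testis clusters, which hold 2460 bins of 1 kb, 1070 of 1176 tested bins were called, or 91.0%. Of these clusters 91 had a single arm, 11 had 2 arms with the right-sharp one on the left, and 0 had the opposite order. The order of the arms was thus shared with the other clusters, and 5 of 7 clusters here had 2 arms against 11 of 121 there. The larger clusters have more bins in which an arm can be called, so these shares are not comparable as they stand.

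The arms differed in how their reads were spread. The start of an arm was taken as its right edge where right ends were sharp and its left edge where left ends were sharp, which is the edge at the switch in clusters with both. An arm ran from its first to its last called bin, so some arms reached beyond the span into sparse bins, which moves the midpoint outward. The left-sharp arms of chr2, proximal chr5 and chr18 ended at 92448000, 113799000 and 67243000. Their spans ended at 92439000, 113788000 and 67234000. With arms so drawn, more than 50% of the testis reads lay between the start and the midpoint in 11 of 12 arms. The share was 57.5% in chr2 and distal chr5, 65.8% (65.4 to 66.3) in the right-sharp and 59.0% in the left-sharp arm of chr17, and 89.9% in the left-sharp arm of proximal chr5. The exception was the right-sharp arm of proximal chr5, with 45.1% (44.4 to 45.7), whose most-read testis left end, 113759125 with 3101 reads, lies beyond the midpoint. In MEL the share was above 50% in 12 of 12 arms, from 51.8% (48.3 to 55.3) in that same arm to 84.5% (75.8 to 91.1) in the left-sharp arm of chr18. In spleen it was above 50% in 9 of 11 arms, and 46.1% (41.8 to 50.5) and 48.1% (43.2 to 53.1) in the right-sharp arm of chr9 and the left-sharp arm of chr17. Each of these spleen intervals reached 50%. Drawn to the end of the span instead, the chr2 share was 44.1% in testis, 49.9% in MEL and 54.4% in spleen. Its arm gave 57.5%, 58.6% and 59.1%. The counts of arms above 50% thus depend on where an arm is ended.

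Across a whole span no common slope was seen. The share of reads left of the midpoint of the span was 58.1% in testis, 41.5% (40.6 to 42.4) in MEL and 52.1% (48.5 to 55.6) in spleen for chr17. For chr6 it was 64.9%, 62.4% (60.6 to 64.1) and 62.3% (58.3 to 66.1), and for chr18 37.6%, 33.8% (31.7 to 36) and 33.8% (29.9 to 37.8). For chr9 it was 57.6%, 56.8% (55.2 to 58.3) and 60.8% (57.0 to 64.6), and for distal chr5 42.5%, 37.5% (35.3 to 39.7) and 41.1% (35.5 to 46.9). The 3 libraries thus leaned to the same side in these 4 clusters, while in chr17 MEL leaned to the right and testis to the left. In proximal chr5 the shares were 50.5% (50.1 to 51.0), 43.1% (40.9 to 45.4) and 54.0% (48.9 to 59.0), and in chr2 44.1% (43.7 to 44.5), 49.9% (48.2 to 51.5) and 54.4% (50.4 to 58.3). There too the libraries leaned apart, with MEL to the right of testis in proximal chr5 and testis to the right of spleen in chr2. Counted by distinct intervals, the testis and spleen shares in proximal chr5 were 48.1% and 47.3%, on the other side of 50%.

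The lean of MEL in chr17 can also be given by arm. The switch there lay near the middle of the span, so the shares by arm and by midpoint count mostly the same reads. The left-sharp arm of chr17 held 62.9% (62.0 to 63.7) of the MEL reads of the 2 arms, against 44.1% (43.7 to 44.4) in testis and 50.4% (46.9 to 53.9) in spleen. Its 41 kb had 32249 testis, 7836 MEL and 405 spleen reads, and the 34 kb of the right-sharp arm had 40911, 4628 and 398. Testis was therefore 2.96-fold above MEL in the left-sharp and 6.36-fold in the right-sharp arm, and 48.2-fold and 62.2-fold above spleen. These were the lowest testis to MEL ratios of the 12 arms, and the highest, 24.5-fold, was in the right-sharp arm of chr18. Between testis and spleen the 11 arms with spleen reads ranged only from 48.2-fold to 76.3-fold. In the other clusters with 2 arms, the share of the left-sharp arm in MEL and testis was 16.6% and 25.1% (chr9), 5.14% and 3.25% (chr18), 81.4% and 83.5% (chr6) and 57.3% and 49.7% (proximal chr5), with MEL below testis in chr9 and chr6 and above it in the others. The left-sharp arm of chr18 had 2047 testis and 97 MEL reads and no spleen read. With spleen set at the floor of 3 reads, the testis to spleen ratio there was 412.8 over reads of all lengths, a value that rests on the floor. Scaled to reads of 24 to 32 nt, testis was 5.59-fold (chr2) to 8.19-fold (distal chr5) above spleen by region. Over all lengths the folds of these regions were 49.9 and 76.4.

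**Figure D3:**
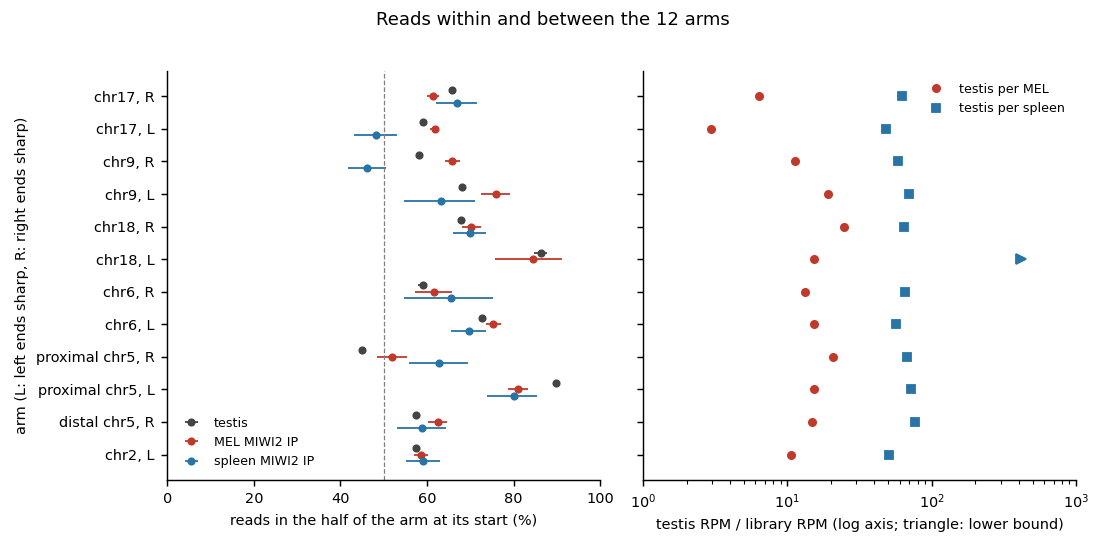
Left, the share of the reads of an arm (%) on the side of its midpoint nearer its start, with exact 95% intervals, for testis, MEL and spleen in each of the 12 arms (R, right ends sharp; L, left ends sharp); the dashed line marks 50%. Right, testis RPM (reads of all lengths) divided by MEL RPM (circles) or spleen RPM (squares) on a log axis. The MEL values run from 2.96 to 24.5 and the spleen values from 48.2 to 76.3. The triangle, labelled a lower bound, is 412.8 for the arm without a spleen read, with spleen set at the floor of 3 reads.

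The ends themselves were often the same nucleotides in testis and in the immunoprecipitates. Over the left-sharp and right-sharp bins together, 74.6% of the distinct MEL sharp ends (5732 of 7685; 73.6 to 75.6) were sharp ends in testis, and 67.6% of the blunt ends (7028 of 10389; 66.7 to 68.5) were blunt ends in testis. Testis ends lay on 8.77% to 9.79% of the positions in these bins for sharp ends and on 12.9% to 14.7% for blunt ends. So the sharp end was the more often shared of the 2. By its definition the sharp end has fewer positions for the same testis reads, so each position holds more reads on average. Ends were not compared at equal reads per end, so nothing beyond the shares is read from this difference. It was the more often shared in 12 of 12 arms, with the 2 intervals apart in 5. In chr2 76.0% (73.6 to 78.3) of the MEL sharp ends and 66.2% (63.9 to 68.5) of the blunt ends were shared, and in distal chr5 76.6% (73.2 to 79.8) and 66.7% (63.4 to 69.8). Sharing was lowest in the left-sharp arm of chr17, at 62.4% (59.9 to 65.0) and 57.2% (55.0 to 59.3), and highest in the right-sharp arm of chr18, at 86.5% and 81.4%.

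In spleen nearly all ends were testis ends, and at full depth the intervals of the 2 kinds overlapped: 92.4% (90.1 to 94.4) of 648 sharp and 91.8% (89.6 to 93.7) of 722 blunt ends. Sharp ends were the more often shared in 6 of 11 arms with spleen reads. These shares depend on how deeply testis was read. When testis was thinned to the 22712 reads that MEL had at 24 to 32 nt, 36% of the MEL sharp (35.0 to 37.1) and 27% of the blunt ends (26.2 to 27.9) were shared. Of the spleen ends, 71.9% (68.3 to 75.3) of the sharp and 64.5% (60.9 to 68.0) of the blunt ones were shared with the thinned testis. After thinning, which was 1 random draw, sharp ends were thus the more often shared in both libraries, with the 2 intervals apart.

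**Figure D4:**
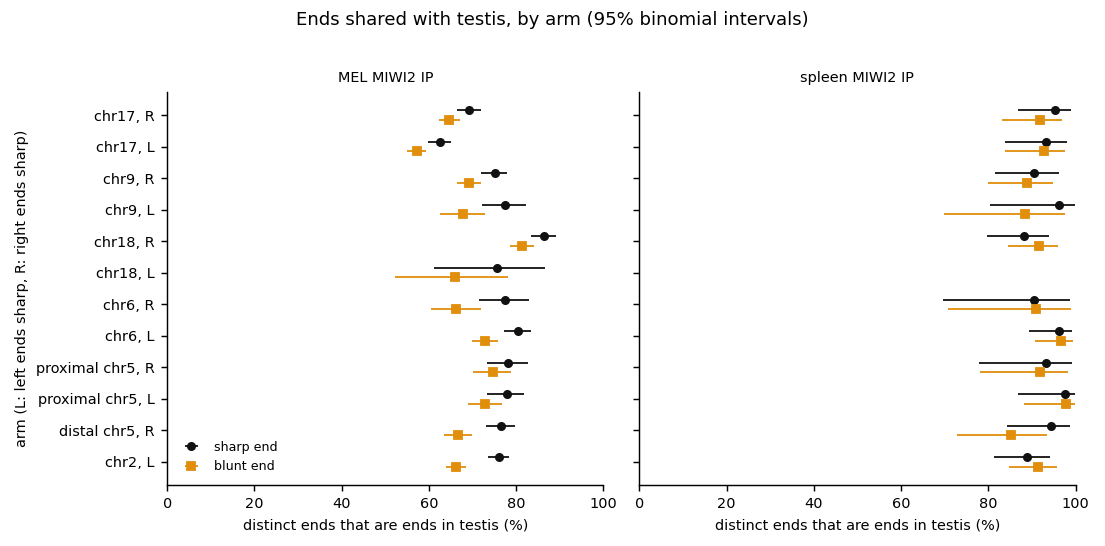
Share of distinct MEL (left) and spleen (right) ends of 24 to 32 nt reads that are ends of the same kind in testis (%), with exact 95% binomial intervals, for the sharp end (black circles) and the blunt end (orange squares) of each arm. In MEL the sharp end lies to the right of the blunt end in 12 of 12 arms, and in spleen both lie between 85.2% and 97.8%.

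Whole intervals, with both ends equal, were shared less often in MEL: 48.2% (47.3 to 49.1) of 11908 MEL intervals of 24 to 32 nt were testis intervals, against 85.9% (83.2 to 88.4) of 747 spleen intervals. By cluster the MEL share was lowest in chr17 at 40.9% (39.4 to 42.4) and highest in chr18 at 64.4% (61.3 to 67.4), and the spleen share ranged from 77.6% (distal chr5) to 92.9% (proximal chr5). The chr18 cluster also had the most testis reads per kb, 1058, and whole intervals were not compared at equal testis depth. The chr17 cluster, with a MEL share of 40.9%, had 813 testis reads per kb, and distal chr5, with 47.7%, had 768. The part of testis density in these shares was not tested.

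Length differed accordingly. The most frequent length was 30 nt in testis in all 7 clusters. It was 26 nt in MEL in 5 clusters and 27 nt in chr18 and chr6, and 30 nt in spleen in 6 and 29 nt in chr18. Among reads of 24 to 32 nt, those of 29 to 32 nt made up 79.4% (79.3 to 79.6) in testis, 78.6% (77.2 to 79.9) in spleen and 17.2% (16.7 to 17.7) in MEL. Testis RNA had been cut from the gel band near 29 nt, and the part of that step in its lengths was not tested. In MEL the share of 29 to 32 nt ranged from 9.29% (8.71 to 9.90) in chr17 to 32.2% (29.9 to 34.5) in chr18, and the other 5 clusters lay between 19.3% and 24.6%. The 2 arms of chr17 differed as well, with 12.8% (11.7 to 14.0) in the right-sharp and 7.26% (6.61 to 7.96) in the left-sharp arm. Outside the 7 regions such reads were 8.23% of MEL, 53.3% of spleen and 80.9% of testis reads of 24 to 32 nt. In the other 121 testis clusters they were 22.1% (21.6 to 22.6), 76.8% (75.8 to 77.9) and 81.2%.

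**Figure D5:**
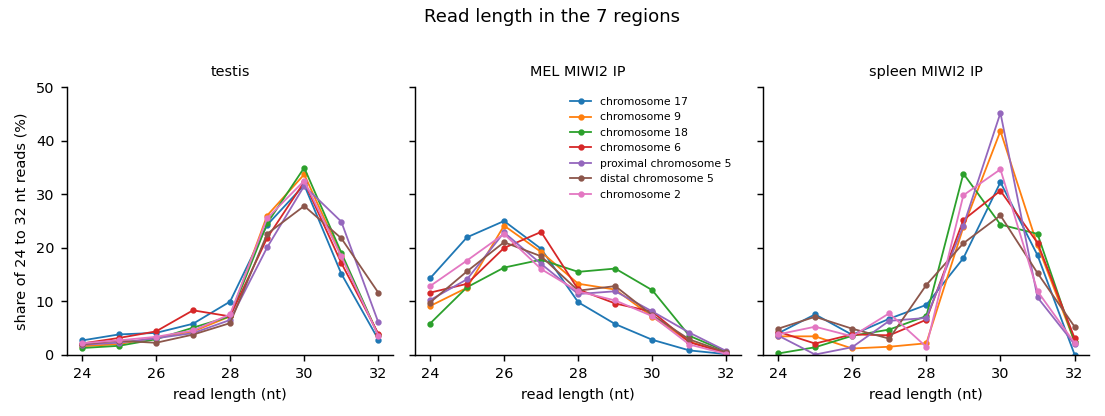
Read length in the 7 clusters, as the share (%) of the reads of 24 to 32 nt at each length in nt, for testis, MEL and spleen, with a line per cluster. Testis and most spleen lines peak at 30 nt and the MEL lines at 26 or 27 nt, with chr17 lowest and chr18 highest at 29 nt in MEL.

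The shorter MEL reads were also seen at single ends, where the starting point is the same. At 301 sharp ends with at least 10 reads in both MEL and testis, the most frequent MEL length was shorter than that of testis at 238, equal at 57 and longer at 6, with a median difference of -3 nt. The mean length at these ends differed by a median of -1.93 nt (quartiles -2.70 and -1.30). Of the 222 ends at which testis reads were mostly 29 nt or longer, MEL was shorter at 198, and of the 79 other ends, at 40. At 75 sharp ends with at least 10 reads in both spleen and testis, spleen was shorter at 18, equal at 44 and longer at 13, with a median difference of 0 nt. Left-sharp and right-sharp ends gave the same median difference of the most frequent length in MEL, -3 nt. For the mean length the medians were -2.07 and -1.77 nt.

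An end in the right-sharp arm of chr9 illustrates this. The right end at 67557388 had 5046 testis, 307 MEL and 56 spleen reads. In testis 3183 of these and in spleen 50 began at 67557360 and were 29 nt long, an interval with 64 MEL reads. The most-read MEL interval there began at 67557363 and was 26 nt long, with 98 MEL reads, 33 testis reads and 0 spleen reads. So the same right end was read in all 3 libraries, and the left end differed by a few nucleotides.

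At other top positions the libraries shared the left end. The left end with most MEL reads in chr18 was 67222926, with 35 MEL, 29 spleen and 2047 testis reads, and it was also the top left end of spleen there. In distal chr5 the left end at 150626666 led in both MEL, with 56 reads, and spleen, with 29, and had 2158 testis reads. In chr2 MEL and testis shared the top left end at 92431673, with 80 and 1425 reads, where spleen had 1. At these left ends MEL was not shorter: its most frequent length was 29 nt, on intervals with 2001, 2148 and 924 testis reads in turn. At the top MEL left ends of chr17, chr9, chr6 and proximal chr5 it was 25 or 26 nt. In chr17 and chr9 testis often had that same interval, in 735 of 1457 and 33 of 35 of its reads at the left end. In chr6 and proximal chr5 it seldom did, in 32 of 1288 and 9 of 109. The top MEL left end of chr6, at 127767767, held 236 reads, or 8.06% (7.10 to 9.11) of the MEL reads of that cluster, beside 16 spleen and 1288 testis reads. The top testis left ends held 2.64% (chr2) to 7.15% (distal chr5) of the testis reads of their cluster, and the top spleen left ends 3.23% (chr17) to 11.3% (chr6).

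Spleen reads were spread over few positions. In the regions each distinct interval was read 4.72 times on average in spleen, 1.84 times in MEL and 4.98 times in testis. At the 4049 reads of spleen, MEL would show 3293 and testis 2936 distinct intervals by rarefaction, against 857 in spleen, so spleen was the library with most copies per interval at equal depth. Only 17.9% of the spleen intervals were read once, against 68.5% in MEL and 59.8% in testis. The 694 spleen intervals that testis also had were read a median of 24 times in testis (quartiles 6 and 81.8). The median was 4 for the 6701 shared with MEL and 1 over all testis intervals. These medians were not taken at equal depth, and a smaller set of reads falls more on well-read intervals, so nothing is read from their order. The part that amplification had in these copies was not tested.

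Bin by bin, the level of testis was above that of MEL by at least 4-fold in 347 of the 418 member bins with at least 10 RPM in either library, where 29.4% of such bins of the genome were. It was above spleen in 400 of 417, against 23.0%. The regions were chosen for high testis levels, so nothing is read from these counts. At 24 to 32 nt, testis was above MEL in 226 of 421 bins (27.3% of the genome's) and above spleen in 239 of 418 (22.1%), and at 2-fold over all lengths in 393 (36.2%) and 417 (28.9%). MEL was at least 4-fold above testis in 1 bin, at 27427001 to 27428000 in chr17, with 15 MEL and 5 testis reads, 2 bins outside the span, against 61.0% of bins of the genome, and spleen was above testis in 0 bins, against 60.4%. At 24 to 32 nt these counts were again 1 and 0, against 33.6% and 27.3%, and at 2-fold again 1 and 0, against 61.8% and 70.6%. Over bins with at least 100 testis reads, the median of the testis to MEL ratio ran from 3.59 in chr17 to 22.6 in chr18. The lowest ratio was 0.88, in the left-sharp arm of chr17 (27481001 to 27482000), with 246 testis, 201 MEL and 0 spleen reads. In that bin the MEL reads lay on 61 left ends and the most-read interval held 6.97% of them. The lowest ratio outside chr17 was 1.29, in the first bin of the chr2 span (92381001), with 322 testis and 180 MEL reads, of which 1 interval held 22.2%. The highest ratio was 83.1, in proximal chr5 at 113759001, with 5889 testis, 51 MEL and 49 spleen reads, where 1 interval held 52.2% of the testis reads.

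Between the immunoprecipitates, which the choice of regions had not used, MEL was at least 4-fold above spleen in 233 of 355 member bins, where 22.6% of bins of the genome were. In 108 of these bins spleen was at or under the floor of 3 reads. Spleen was at least 4-fold above MEL in 1 bin, at 113790001 in proximal chr5, with 14 spleen and 2 MEL reads, against 26.3% of bins of the genome. At 2-fold the counts were 310 (36.7%) and 4 (53.0%). Scaled to reads of 24 to 32 nt, MEL was above spleen in 49 of 373 bins (6.20% of the genome's bins) and spleen above MEL in 15 (25.4%). In 39 of the 49 spleen was at or under the floor, and in 3 of the 15 MEL was. On this scale most member bins thus differed by less than 4-fold, with a median MEL to spleen ratio of 1.2. The depth of spleen limited this comparison, since 1 spleen read stood for 15.3 per 1000000 reads of 24 to 32 nt, against 3.48 in MEL.

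Of 2 known spacings of piRNA ends, neither exceeded its neighbouring distances by more than a few percent. Before 3′ ends are trimmed, successive piRNAs cut from the same precursor would place a left end on the base after a right end. After trimming they would lie farther apart, so the next-base ratios cannot decide whether piRNAs were cut in succession. In testis there were 5784 such pairs of distinct ends, 1.02 times (0.99 to 1.04) the mean of the distances 2 to 5 nt away on either side, and in MEL 292 pairs, or 0.99 times (0.88 to 1.11). Against the 2 adjacent distances alone, with 5352 and 5585 pairs, the testis ratio was 1.06 (1.02 to 1.09), and in MEL, with 290 and 274 pairs, 1.04 (0.90 to 1.19). The small testis excess thus depends on which neighbours are used, and pairs at 2 to 6 nt also outnumbered those at 0 nt. An overlap of 10 nt, the mark of the amplification cycle between piRNAs of opposite strands, gave 1.0 times (0.98 to 1.03) in testis and 0.97 times (0.87 to 1.08) in MEL against the distances 1 to 4 nt away, and 1.01 (0.98 to 1.04) and 1.04 (0.91 to 1.19) against the adjacent ones. Spleen had 1 and 2 such pairs, too few to read. Since reads of both strands are pooled here, these ratios say nothing of spacing on each strand.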

How the data were processed

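Small RNA reads of 2 MIWI2 immunoprecipitates and 1 testis gel band were analysed from mapped positions. Libraries followed Illumina's small RNA guide, per the labels' protocols, and Bowtie 0.12.7 is named in the submitters' processing notes. The build, trimming, mapping options and handling of multiply matching reads were not given in the sources used here, so how far repeated sequence adds to a bin is not known. Each line of the files deposited by the authors gives chromosome, start and end of 1 read, with no strand, sequence, score or normalisation. The start was taken as counted from 0, so the left end is start plus 1. The reference at hand was GRCm38. It was not joined, since the files use chromosome names that it lacks, such as chr13_random, so no sequence is printed.

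Reads were counted by left end per 1 kb bin and scaled to RPM. A library under 3 reads was set at 3 reads in a fold, and folds were called at 4-fold. Named bins and ends are, per cluster, the top bins, borders, gaps, switches, most-read left ends and extreme testis to MEL ratios over bins with at least 100 testis reads, and the single bins called against the common direction, which were named after their values were seen. Members and lists were chosen with earlier results of these data known. Arms, the count of equal ends by length, the rarefaction to equal depth and the comparison with adjacent distances were chosen after seeing the data. Bin counts, borders, sides and arms were tested on simulated data, and the other measures were not. Analyses used Python 3.11.15, numpy 2.4.6, pandas 2.3.3, scipy 1.17.1 and matplotlib 3.10.9.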

Additional observations from a re-analysis of the deposited data

How the results depend on the processing

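Of 134 comparisons of a value with its alternative, 77 stayed within the counting interval or 1.5 times the count and 57 moved. Of 63 shares of reads left of the midpoint, 5 crossed 50%: proximal chr5 went from 50.5% to 48.1% (distinct intervals) and 46.97% (without the most-read left end) in testis and from 54.0% to 47.3% (distinct intervals) in spleen, and chr2 in MEL from 49.9% to 51.2% and 51.02%. The share of the library in the 7 regions was 7.90% (MEL), 5.57% (spleen) and 35.5% (testis) at 24 to 32 nt, and 8.53%, 0.849% and 26.6% by distinct intervals. Bins inside the spans with 0 testis reads numbered 0, and those under 50 RPM 13. At a ratio of 1.5, 78 bins were right-sharp and 76 left-sharp. With ends of at least 2 reads, 1 region was fully in order instead of 7: 9 bins took the other side, each with at most 34 intervals and 10 such ends. Shared sharp and blunt ends of MEL were 77.9% and 71.4% at 26 to 31 nt, 88.5% and 78.5% weighted by reads, and 36% and 27% against thinned testis, where those of spleen were 71.9% and 64.5%. Reads of 29 to 32 nt made up 20.5% in MEL and 64.5% in testis by distinct intervals. At 24 to 32 nt, 49 bins had MEL above spleen, 15 spleen above MEL, 226 testis above MEL and 239 testis above spleen; at 2-fold, spleen was above MEL in 4. Against adjacent distances, chosen after seeing the data, the testis next-base ratio was 1.06 instead of 1.02. The spleen next-base ratio, 0.53 on 1 pair, was 0 with ends of at least 2 reads. For the values that moved, the cause was not tested, beyond the fewer reads or ends that an alternative keeps. The rarefaction, chosen after seeing the data, gave 1.23 (MEL) and 1.38 (testis) reads per interval. No paired analysis was possible because each group has 1 library, and no library could be left out.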

Other observations

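Reads shorter than piRNAs were also present in the 7 clusters. Reads of 18 to 23 nt made up 24.6% (23.8 to 25.4) of the MEL reads in chr17, and between 14.6% and 18.7% in the other 6 clusters. In spleen they made up between 5.57% (chr6) and 12.4% (chr2), and in testis between 4.01% (chr9) and 5.79% (chr17). The part of the testis gel band in this was not tested. The chr17 cluster, with the largest MEL share of 18 to 23 nt reads, was also the one with the smallest MEL share of 29 to 32 nt reads. The share of all MEL reads of a cluster that were 24 to 32 nt long was 74.7% (73.9 to 75.4) in chr17 and 85.3% (83.6 to 86.8) in chr18.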
